A study of Mus musculus with 6 samples.

Results

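Transcript levels of 39 genes that carry or restrain the T cell receptor signal were examined in invariant natural killer T (iNKT) cells from mouse liver. The genes were named kinases, adaptors, phosphatases and negative regulators, split into 23 activators and 16 brakes. They were taken by function, with earlier results of these data known. All 39 were found by symbol among the 12942 genes of the deposited table, and all 39 passed the filter on low values. Mice of the group called cKOHet carried Tbx21Cre, 2 floxed Ets1 alleles (Ets1F/F), 1 floxed Tbx21 allele (Tbx21F/+) and the Rosa26-YFP reporter. The control group carried Tbx21Cre and Rosa26-YFP alone, so that both groups had the Cre and the reporter. Cre was driven by Tbx21, the gene of the type 1 lineage factor T-bet, and cells of both groups were sorted from liver as CD1d tetramer-positive and YFP-positive and are labelled iNKT1 cells. There were 3 libraries per group, numbered 1, 2 and 4. The sources used here give no ages, and the code of replicate 1 joins 2 names in each group without explanation. The comparison asks what these cells express without Ets1 and with 1 floxed Tbx21 allele. Both changes are present together in the cKOHet group, so their effects cannot be told apart.

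When the receptor of a T cell is engaged, the kinase Lck phosphorylates the CD3 chains and activates the kinase Zap70, which phosphorylates the scaffolds LAT and SLP-76. Phospholipase C gamma 1 then makes inositol trisphosphate, which raises calcium and activates the NFAT factors, and diacylglycerol, which recruits Rasgrp1 and protein kinase C theta and so activates Ras and NF-kappaB. The brakes remove these signals: phosphatases and Csk hold Lck and Zap70 inactive, Cbl-type ligases and SLAP adaptors mark the receptor machinery for degradation, diacylglycerol kinases consume diacylglycerol, and Ras GTPase-activating proteins switch Ras off. iNKT cells are selected by strong receptor signals and leave the thymus in a primed state, so the balance of these parts is of interest in them.

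Levels are the authors' normalised read counts, which summed to between 4996523 and 5219483 per library. Ets1, floxed at both alleles in cKOHet mice, had 462, 596 and 441 in cKOHet libraries and 7391, 6255 and 7787 in controls (log2 fold change -3.84, SE 0.14, limma adjusted p = 1.06e-10). Tbx21 had 2173, 2316 and 2127 in cKOHet libraries and 2434, 2504 and 2765 in controls and was not called (log2 -0.22, adjusted p = 0.196). Replicate 4 of both groups had almost no Xist (0.08 in the cKOHet and 1.17 in the control library, against 4337 to 5657 in the other libraries), and the gene was high in both other libraries of each group. All 8 markers of iNKT and T cells were listed, among them Cd3e, Trac and Zbtb16, and they summed to between 39600 and 45400 in cKOHet libraries and 45000 to 50100 in controls. Within that sum Il2rb was lower, at 10600 to 14340 in cKOHet libraries and 19870 to 20470 in controls, and so was Tbx21. Cd3g, at 6043 to 6452 in cKOHet libraries and 4417 to 5273 in controls, and Zbtb16, at 798 to 1255 in cKOHet libraries and 627 to 670.1 in controls, were higher in every cKOHet library, and the other 4 overlapped. Of 5 myeloid markers 4 were listed, summing to between 90.2 and 108 in cKOHet libraries and 16.2 to 62.6 in controls. Clec4f and Csf1r were higher in every cKOHet library. Lyz2 and Adgre1 overlapped, and Adgre1 was at 0.04 in 2 controls. Other cell types gave lower sums than the T cell markers. The B cell marker Ighm, the single one of 5 listed, was at 764 to 1050 in cKOHet libraries and 1890 to 2060 in controls. The 2 listed of 5 endothelial markers summed to 48.9 to 52.4 in cKOHet libraries and 172 to 224 in controls. Most of it was Pecam1 (36.5 to 51.4 in cKOHet libraries and 172 to 220 in controls). Stab2 overlapped (1.01 to 12.4 in cKOHet libraries and 0.04 to 3.68 in controls). The 5 hepatocyte markers summed to 255 to 623 in cKOHet libraries and 183 to 375 in controls. The 3 NK cell markers summed to 123 to 134 in cKOHet libraries and 41.3 to 66.7 in controls; most of it was Klrb1b (90.9 to 115 in cKOHet libraries and 20.2 to 58.2 in controls), while Ncr1 was lower in every cKOHet library (5.52 to 7.05, against 8.45 to 9.47 in controls). The 2 CD8 T cell markers summed to 252 to 1690 in cKOHet libraries and 23.7 to 42.2 in controls; Cd8a had 237 to 1657 in cKOHet libraries and 10.7 to 20.1 in controls, and Cd8b1 overlapped (13.6 to 35.4 in cKOHet libraries and 3.56 to 31.5 in controls). Of 3 erythroid markers Hba-a1 was listed, at 7.39 to 33.2 in cKOHet libraries and 0.00 to 0.06 in controls, and none of 4 neutrophil markers was. The part of such cells in the results was not tested, and in bulk samples fewer cells of a type cannot be told apart from less RNA per cell.

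The signalling genes moved in both directions on both sides of the pathway. Calls were made where the adjusted p of a limma fit over all 11226 genes tested was under 0.05. Of the 39 genes, 15 were called (38.5%), where 21.4% of all genes tested were called. Among genes at or above the lowest mean level of any of the 39, the share was 23.6%, with 12.4% higher and 11.2% lower. That lowest level was 86.5 (Tec). The median of the 39 genes stood above 91.5% of genes tested in mean level, so these shares are not matched for level. Of the 23 activators, 3 rose (Rasgrp1, Grap2 and Themis), 5 fell (Vav1, Was, Plcg1, Prkcq and Malt1) and 15 did not pass the test. Of the 16 brakes, 3 rose (Ptpn6, Sla and Sla2), 4 fell (Cbl, Cblb, Dgka and Rasa2) and 9 did not pass. Over all genes tested, 11.5% were called higher and 9.97% lower. The median log2 fold change was -0.01 for the activators and 0.20 for the brakes, against 0.01 for all genes tested, and the median size regardless of sign was 0.25 and 0.35, against 0.30. At least 2-fold changes were found at 3 genes, the brakes Ptpn6, Cbl and Dgka (7.69%, against 13.2% of all genes tested); the called activators ran from -0.75 to 0.87. The groups did not overlap at 21 of the 39 genes, where 35.8% of all genes tested did not overlap. With 3 libraries against 3, an exact two-sided permutation test of a single gene cannot fall below p = 0.1, so calls rest on the fit across all genes.

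**Figure D1:**
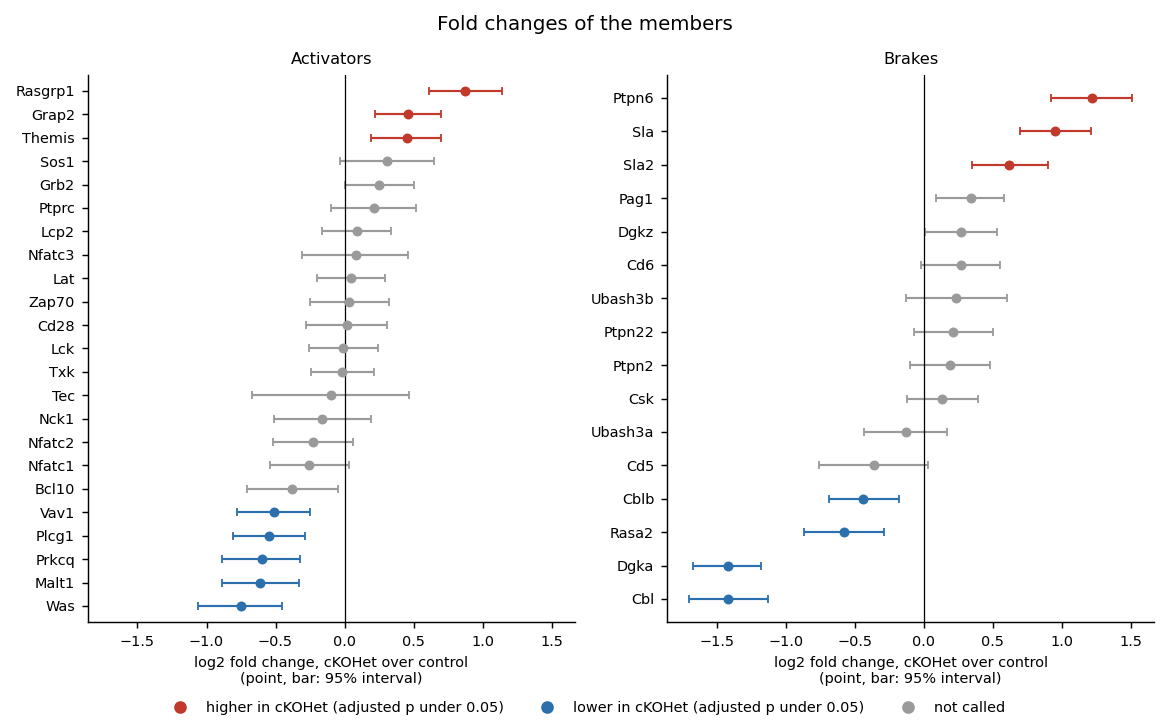
Log2 fold change of each of the 39 genes, cKOHet over control, with its 95% interval from the limma fit; activators are in the left panel and brakes in the right, and red and blue mark genes called higher and lower in cKOHet. The activators lie between -0.75 (Was) and 0.87 (Rasgrp1), while the brakes spread from -1.42 (Cbl and Dgka) to 1.22 (Ptpn6).

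Because both Ets1 alleles were floxed in cKOHet mice, beside 1 Tbx21 allele, the promoters of the genes were read for the usual motif of Ets1. Sequences came from RefSeq (GRCm38.p6), from 250 bases before to 50 bases after each annotated start, and 32 of the 39 genes had an entry. Ets factors bind around a GGAA core, and AGGAAGT was searched on both strands as a form common in lymphoid genes. It lay in a promoter of 11 of the 32 genes (34.4%), where 11% of the 8269 tested genes with an entry and 10.7% of all 27025 genes with an entry held it. A gene was counted if any of its promoters held a motif. The 32 genes had 49 promoters and the 27025 had 32851, so the 32 had more promoters per gene, and the shares were not adjusted for this. The 11 were Vav1, Was, Ptpn6, Lck, Txk, Grb2, Nfatc2, Nfatc3, Ptprc, Cd5 and Dgkz. Of the called genes 3 of 13 held it and of those not called 8 of 19. The shorter GGAAGT, which every AGGAAGT contains, lay in 16 of 32 (against 34.5% of tested genes), and CCGGAAGT, which also contains GGAAGT, in 1 of 32, Bcl10 (3.1%, against 10.6%). The Ets forms, CGGAAG and ACCGGAAG, lay in 7 and 0 of 32 (21.9% and 0.0%, against 38.9% and 6.2%). A Runx-type motif, TGNGGT, lay in 21 of 32 (65.6%, against 47.2%), and a T-box motif, GGTGTGA, in Plcg1 and Vav1, 2 of 32 (6.2%, against 4.0%). The motifs were chosen after some promoters had been looked at, and a match is a description of letters, not of binding. The stretches around AGGAAGT are shown for the 3 called genes that hold it and for 3 that were not called, on the gene's own strand, with AGGAAGT or its reverse complement ACTTCCT in capitals; they end at the annotated start where it lies within 30 bases. They are Vav1 (chr17:57279060-57279099, plus strand), Was (chrX:8090492-8090545, minus strand), Ptpn6 (chr6:124738863-124738929, minus strand), Lck at 2 annotated starts (a, chr4:129573642-129573681, and b, chr4:129558450-129558516, both minus strand), Cd5 (chr19:10738990-10739056, minus strand) and Nfatc2 (chr2:168601732-168601798, minus strand).
Vav1: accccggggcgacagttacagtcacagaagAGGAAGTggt
Was: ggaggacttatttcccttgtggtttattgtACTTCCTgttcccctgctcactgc
Ptpn6: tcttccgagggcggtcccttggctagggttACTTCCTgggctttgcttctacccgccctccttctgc
Lck, start a: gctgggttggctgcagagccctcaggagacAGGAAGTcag
Lck, start b: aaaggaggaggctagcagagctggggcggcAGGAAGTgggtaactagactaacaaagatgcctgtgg
Cd5: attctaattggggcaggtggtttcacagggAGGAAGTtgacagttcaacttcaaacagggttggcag
Nfatc2: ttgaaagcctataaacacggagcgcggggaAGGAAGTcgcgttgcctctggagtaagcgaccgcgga
The first base of the motif lay 10 bases before the annotated start in Vav1, 24 in Was, 190 in Ptpn6, 10 and 114 at the Lck starts a and b, 52 in Cd5 and 111 in Nfatc2. Vav1 and Was fell and Ptpn6 rose in cKOHet libraries, so genes with the motif were found among both directions and among those not called.

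None of the 4 proximal kinases was called. Lck, the kinase that starts the cascade, had 4783, 5415 and 4888 in cKOHet libraries and 5025, 4828 and 5294 in controls, a log2 fold change of -0.01 (95% interval -0.26 to 0.24). Zap70, which binds the phosphorylated CD3 chains, had 2194, 2870 and 2285 in cKOHet libraries and 2200, 2238 and 2730 in controls (0.03, interval -0.25 to 0.32). The groups overlapped at both genes. The Tec family kinases Txk and Tec, which phosphorylate phospholipase C gamma, were not called either. Txk had 1867, 1733 and 1790 in cKOHet libraries, against 1823, 1809 and 1813 in controls (-0.02, interval -0.24 to 0.21). Tec had few reads, at 78.6, 109 and 64.6 in cKOHet libraries and 70.1, 96.0 and 101 in controls, and its interval was wider (-0.67 to 0.47).

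Among the 6 adaptors, Grap2 and Themis rose. Grap2 encodes GADS, the adaptor that brings SLP-76 to LAT. It had 905, 937 and 952 in cKOHet libraries and 714, 678 and 641 in controls, every cKOHet library being higher than every control (log2 0.46, SE 0.11, limma adjusted p = 0.00896). Themis, an adaptor of thymocyte selection that binds the phosphatase SHP-1, had 1099, 882 and 1039 in cKOHet libraries and 744, 735 and 728 in controls (0.45, SE 0.12, adjusted p = 0.015). Its groups did not overlap either, but the call ended without cKOHet replicate 1 (log2 0.38, adjusted p = 0.0613). Both calls ended when the fit had no mean-variance trend (adjusted p = 0.0566 for Grap2 and 0.0864 for Themis). The scaffolds themselves were not called: Lat had 2215, 2446 and 2039.8 in cKOHet libraries and 2103, 2077 and 2302 in controls (0.05, interval -0.20 to 0.29). Lcp2, which encodes SLP-76, had 2811, 2837 and 3283 in cKOHet libraries and 2830.3, 2558 and 2987 in controls (0.09, interval -0.16 to 0.34). Grb2, the adaptor that brings Sos to LAT, was higher in every cKOHet library (929.6, 1001 and 1110.4, against 807, 859 and 886) without passing the test (0.25, adjusted p = 0.156). Nck1, which links SLP-76 to actin regulators, ranged from 202 to 255 in cKOHet libraries and from 238 to 293 in controls (-0.16, interval -0.51 to 0.19).

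Of the 4 regulators of Ras, Rac and actin, Rasgrp1 rose, Vav1 and Was fell and Sos1 did not pass the test. Rasgrp1, the diacylglycerol-dependent exchange factor that activates Ras in T cells, had 5780.2, 5940.4 and 7176 in cKOHet libraries and 3455, 3557 and 3255 in controls. All 3 cKOHet libraries stood well above the controls, a 1.83-fold increase (log2 0.87, SE 0.12, limma adjusted p = 0.0001). Sos1, the Ras exchange factor recruited by Grb2, had 294, 298 and 328 in cKOHet libraries and 247, 291 and 209 in controls. Its groups did not overlap, but it was not called (0.31, adjusted p = 0.205). Vav1, the exchange factor for Rac that acts beside SLP-76, had 706, 721 and 836 in cKOHet libraries and 1016, 1007 and 1204 in controls (-0.51, SE 0.12, adjusted p = 0.00781, or 0.0681 with no mean-variance trend). Was, the X-linked gene of the Wiskott-Aldrich protein that starts actin branching, had 894, 1024 and 864 in cKOHet libraries and 1375, 1397 and 1982 in controls. Every cKOHet library was below every control, and the control with almost no Xist was the highest (log2 -0.75, SE 0.14, adjusted p = 0.0014). Without that control the log2 fold change of Was was -0.58 and it was still called.

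The branch that leads to diacylglycerol, protein kinase C theta and NF-kappaB was lower at all 4 of its genes in every cKOHet library, and 3 of the 4 passed the test. Plcg1, the phospholipase that makes both second messengers, had 1644, 1494 and 1909 in cKOHet libraries and 2612, 2406 and 2345 in controls (-0.55, SE 0.12, limma adjusted p = 0.00384). On the opposite strand it shares 379 exon bases with Zhx3, which averaged 219 in cKOHet libraries and 168 in controls. It also shares 248 with Gm27206, at 3.31 and 6.66, and the strand setting of the counting is not given. Prkcq, which encodes protein kinase C theta, had 982, 868 and 1238 in cKOHet libraries and 1542, 1467 and 1634 in controls (-0.60, SE 0.13, adjusted p = 0.00429). Malt1, the paracaspase that acts with Bcl10, had 408, 351 and 432 in cKOHet libraries and 602, 571 and 642 in controls (-0.61, SE 0.13, adjusted p = 0.00352). Bcl10, its partner, had 207, 232 and 263 in cKOHet libraries and 311, 287 and 316 in controls and was not called (-0.38, adjusted p = 0.0951). The size of the decrease was therefore close to 1.5-fold at the 3 called genes (1.46-fold for Plcg1, 1.52-fold for Prkcq and 1.53-fold for Malt1). With no mean-variance trend, the calls of Plcg1 and Prkcq ended (adjusted p = 0.054 and 0.063) and that of Malt1 was kept.

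The 3 NFAT genes, which encode the calcium-dependent transcription factors, were not called. Nfatc1 had 1140.1, 1435 and 1602 in cKOHet libraries and 1567, 1629 and 1748 in controls (-0.26, interval -0.54 to 0.03). Nfatc2 had 934, 864 and 1228 in cKOHet libraries and 1142, 1207 and 1156 in controls (-0.23, interval -0.52 to 0.06), and it was called lower without cKOHet replicate 4 (-0.38, adjusted p = 0.0358). Nfatc3 stood out for its spread, with 1134, 1622 and 2253 in cKOHet libraries against 1527, 1521 and 1525 in controls. Its coefficient of variation was 33.6% in cKOHet libraries, the highest of the 39 genes, and 0.196% in controls, the lowest. The mean difference of Nfatc3 was 0.08 on the log2 scale (interval -0.31 to 0.46), and it was -0.17 without cKOHet replicate 4.

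The 2 activating surface molecules were not called. Cd28, the costimulatory receptor, had 1847, 1576 and 2373 in cKOHet libraries and 1959.8, 1859.7 and 1833 in controls (0.02, interval -0.28 to 0.31). Ptprc, which encodes CD45, the phosphatase that keeps Lck primed, had 14581, 14723 and 16305 in cKOHet libraries and 13499, 11635 and 14357 in controls. Every cKOHet library was above every control, by less than the test requires (0.21, adjusted p = 0.348).

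**Figure D2:**
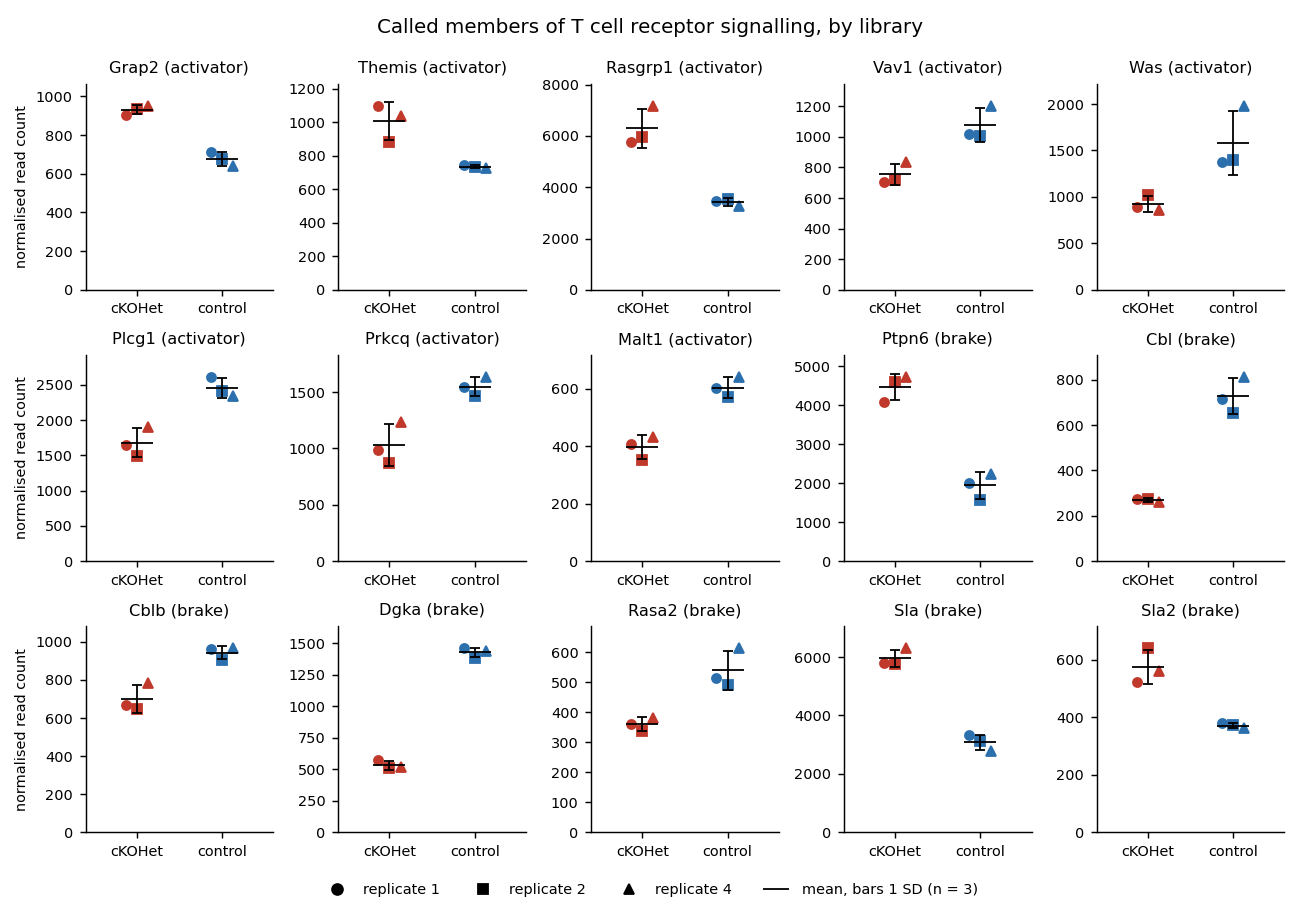
Normalised read count in each library for the 15 called genes, cKOHet in red at the left and control in blue at the right of each panel, with symbols for replicates 1, 2 and 4 and a line and bars for the mean and 1 SD (n = 3). In every panel the 2 groups are apart; the gap is widest relative to the level for Cbl and Dgka, where cKOHet libraries sit at 261 to 275 for Cbl and 509 to 570.1 for Dgka, against 655 to 812 and 1384 to 1459 in controls.

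On the side of the brakes, the ubiquitin ligases fell together. Cbl, which ubiquitinates the engaged receptor and Zap70, had 275, 275 and 261 in cKOHet libraries and 713, 655 and 812 in controls. The cKOHet libraries were tightly grouped and far below the controls, a 2.67-fold decrease (log2 -1.42, SE 0.13, limma adjusted p = 1.69e-06). Cblb, the relative of Cbl that sets the need for costimulation, had 667, 648 and 782 in cKOHet libraries and 960.1, 904 and 966 in controls (-0.44, SE 0.12, adjusted p = 0.0165). Leaving out cKOHet replicate 1 or 2 or control replicate 1 or 4 ended it (adjusted p = 0.0501, 0.0706, 0.0634 and 0.0551, with log2 fold changes of -0.41, -0.38, -0.42 and -0.42), as did a fit with no mean-variance trend (0.0871).

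Of the 3 brakes on diacylglycerol and Ras among the 39 genes, 2 fell and 1 did not pass the test. Dgka, the diacylglycerol kinase alpha linked to T cell anergy, had 570.1, 509 and 515 in cKOHet libraries and 1459, 1384 and 1435 in controls. It had the smallest adjusted p of the 39 genes (3.5e-07, limma), with a 2.68-fold decrease (log2 -1.42, SE 0.11). Dgkz, the zeta form, was not called, at 2015, 2422 and 2503 in cKOHet libraries and 1778, 2066 and 1879 in controls (0.27, adjusted p = 0.132). Dgkz shares 222 exon bases with Gm9821 on the opposite strand, which averaged 117 in cKOHet libraries and 22.4 in controls. Since no source used here gives the strand setting of the counting, reads of such a pair may not be told apart. Rasa2, a Ras GTPase-activating protein, had 362, 337 and 383 in cKOHet libraries and 516, 493 and 614 in controls (-0.58, SE 0.14, adjusted p = 0.00632). Genes of the same functions outside the 39 went in both directions. Of the other diacylglycerol kinase genes listed, Dgkd was called higher (log2 0.87, limma adjusted p = 0.000144) and Dgke was not called (-0.36, adjusted p = 0.282). Of the other Ras GTPase-activating protein genes, Rasa1 (0.88, limma adjusted p = 0.000845) and Rasa3 (1.88, adjusted p = 3.17e-08) were called higher, Rasal3 was called lower (-0.87, adjusted p = 8.81e-05) and Nf1 was not called (0.35, adjusted p = 0.435).

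The SLAP adaptors, which bind Cbl and direct the receptor to degradation, both rose. Sla, which encodes SLAP, had 5789, 5764 and 6301 in cKOHet libraries and 3323, 3118 and 2800.2 in controls, a 1.93-fold increase (log2 0.95, SE 0.12, limma adjusted p = 2.89e-05). Sla2, which encodes SLAP-2, had 524, 641 and 561 in cKOHet libraries and 379, 372 and 363 in controls (0.62, SE 0.13, adjusted p = 0.00275). Neither gene overlapped between groups. Of the exon bases of Sla2, 23.6% are shared with Rab5if on the opposite strand, which averaged 106 in cKOHet libraries and 123 in controls.

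Of the 3 phosphatase genes, Ptpn6 rose. It encodes SHP-1, which dephosphorylates Lck, Zap70 and their substrates, and had 4090.1, 4603 and 4726 in cKOHet libraries and 2006, 1577 and 2242 in controls. The lowest cKOHet library was far above the highest control, and the fold change was 2.32 (log2 1.22, SE 0.14, limma adjusted p = 1.02e-05). Of the exon bases of Ptpn6, 6.96% are shared with Gm20531 on the opposite strand, which averaged 17.2 in cKOHet libraries and 12.8 in controls. The myeloid marker sum was also higher in cKOHet libraries, at 90.2 to 108 against 16.2 to 62.6, though Lyz2 and Adgre1 overlapped between groups. Myeloid cells express Ptpn6, and their part in the result was not tested. Ptpn22, the Lck and Zap70 phosphatase that works with Csk, had 2291, 2245 and 3103 in cKOHet libraries and 2243, 2129 and 2148 in controls. The lowest cKOHet value was just above the highest control, and it was not called (0.21, adjusted p = 0.299). Ptpn2, a phosphatase of Lck and of Jak kinases, had 759, 608 and 607 in cKOHet libraries and 608, 602 and 516 in controls (0.19, adjusted p = 0.372).

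The inhibitory surface receptors, the membrane anchor of Csk and the Sts proteins were not called. Csk, the kinase that switches Lck off, had 2441, 2811 and 2250.1 in cKOHet libraries and 2172, 2240.5 and 2405 in controls (0.13, interval -0.12 to 0.39). Pag1, the membrane adaptor that holds Csk near Lck, was at 885, 831 and 811 in cKOHet libraries and 661, 700.4 and 642 in controls, with no overlap. At an adjusted p of 0.0514 (log2 0.34) it lay just outside the threshold, and it was called with a filter of 50, with library weights or with low Xist as a term in the fit (adjusted p = 0.0494, 0.0401 and 0.0482). Cd5, an inhibitory receptor whose level follows receptor signal strength in thymocytes, had 804, 640.4 and 838 in cKOHet libraries and 993, 706 and 1313 in controls (-0.36, adjusted p = 0.193). The controls of Cd5 were spread widely (coefficient of variation 30.2%), and without control replicate 2 it was called lower (-0.60, adjusted p = 0.0218). Its neighbour on chromosome 19 and relative Cd6 had 2121, 2299.6 and 2676 in cKOHet libraries and 2016, 1667 and 2227 in controls (0.27, adjusted p = 0.185). Ubash3a and Ubash3b, the genes of the Sts phosphatases that act on Zap70, had fold changes of -0.13 (interval -0.43 to 0.17) and 0.23 (interval -0.13 to 0.60) on the log2 scale. Ubash3a ranged from 424 to 581 in cKOHet libraries and 517 to 592 in controls, and Ubash3b from 273 to 296 in cKOHet libraries and 194 to 292 in controls.

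Levels of different genes can be set side by side only per length, so for related genes the normalised count per kb of annotated exon was computed; the union of all annotated exons was taken as the length, which may exceed the transcript in use. Per kb, Dgka made up 27.1%, 21.7% and 21.3% of the sum of Dgka and Dgkz in cKOHet libraries and 51.9%, 46.9% and 50.1% in controls, where the pair was near equal. The sum of both was 480.5 ± 34.9 per kb in cKOHet libraries and 604 ± 15.3 in controls (SD, n = 3 each). Cblb was the larger of the Cbl pair in all 6 libraries; Cbl made up 25.9%, 26.5% and 22.1% of their sum in cKOHet libraries and 38.6%, 38.1% and 41.6% in controls. Their sum was 88.6 ± 6.27 per kb in cKOHet libraries and 149 ± 9.32 in controls. Ptpn6 was the highest of the 3 phosphatases in every library, with 71.5%, 75.7% and 72.1% of their per-kb sum in cKOHet libraries and 57.7%, 52.6% and 62.4% in controls. The summed Sla and Sla2 level was 833 ± 33.8 per kb in cKOHet libraries and 455 ± 31.4 in controls, with Sla at 77.7% ± 2.18 of it in cKOHet libraries and 73.6% ± 1.25 in controls. The Cd5 share of Cd5 plus Cd6 was 38.0%, 31.0% and 33.6% in cKOHet libraries and 44.3%, 40.6% and 48.8% in controls, while their sum was 451 ± 47.6 per kb in cKOHet libraries and 451 ± 96.8 in controls. The Ubash3a share of Ubash3a plus Ubash3b was 53.7% ± 4.68 in cKOHet libraries and 59.8% ± 4.87 in controls; the groups did not overlap, but the highest cKOHet and the lowest control share were both 56.9% as rounded. Shares of Txk against Tec overlapped between the groups. These shares were not tested.

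**Figure D3:**
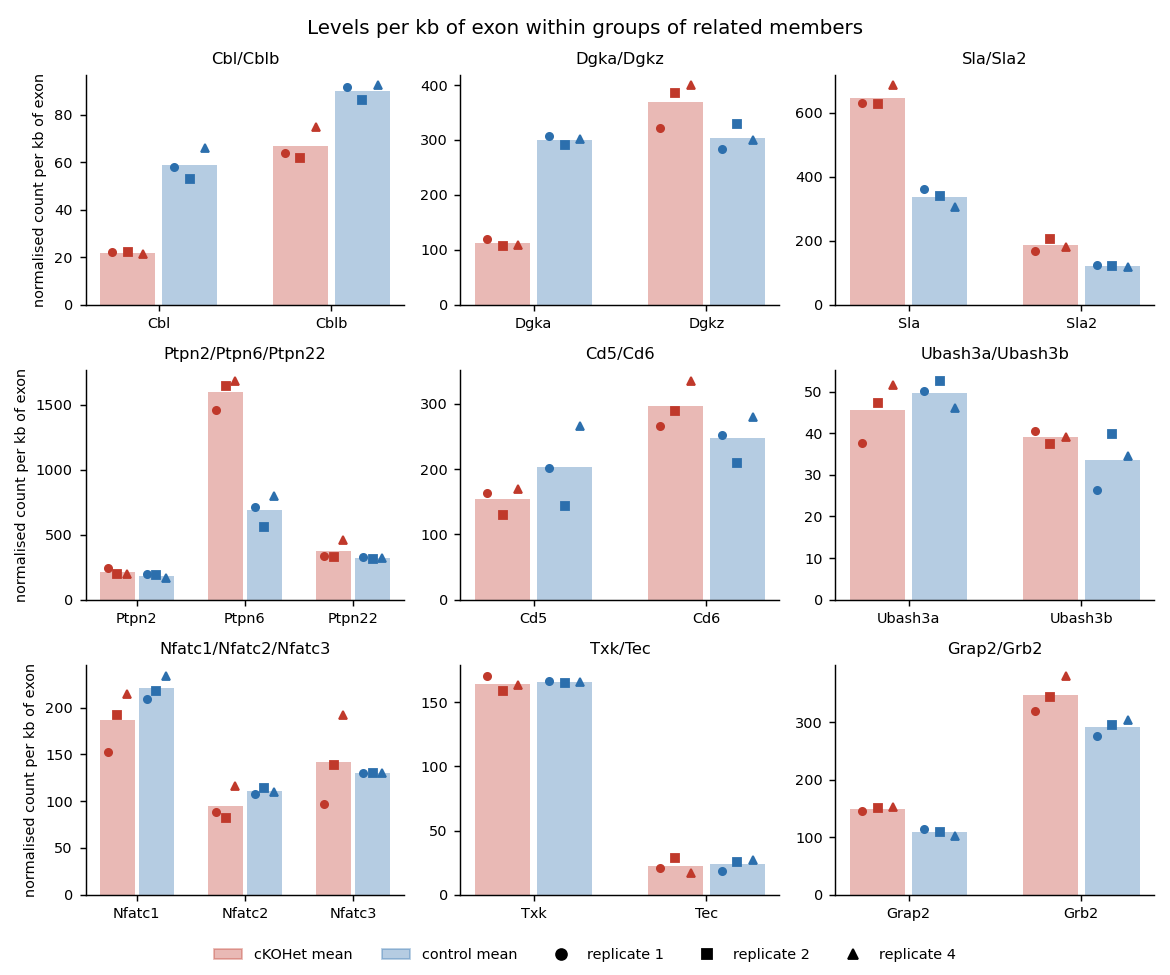
Normalised count per kb of annotated exon for related genes, with bars for the group means (cKOHet red at the left, control blue at the right of each pair) and symbols for the libraries. Dgka lies well below Dgkz in cKOHet libraries (21.3% to 27.1% of their sum) and near it in controls (46.9% to 51.9%), while Txk is above Tec in every library (84.5% to 90.5% of their sum in cKOHet and 85.9% to 89.9% in control libraries).

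The spread among libraries differed between genes. The coefficient of variation of the 39 genes had a median of 10.4% in cKOHet libraries (2.56% to 33.6%) and 5.71% in controls (0.196% to 30.2%). Replicate 4 was the highest library of its group at 24 of the 39 genes in cKOHet libraries (61.5%, against 36.3% of all genes tested) and at 20 of 39 in controls (51.3%, against 35.7%). It was the library with almost no Xist in each group, and a term for those libraries changed no call among the 39 genes but that of Pag1.

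A further 61 genes of the pathway were taken by function, with earlier results of these data known, and 59 of them were listed and tested. Whether that choice raised the share called was not tested. Of these 59, 13 rose, 15 fell and 31 did not pass, so that 47.5% were called where 21.4% of all genes tested were. Among 30 other activating genes 5 rose and 4 fell, and among 29 other restraining genes 8 rose and 11 fell. Their median log2 fold change was 0.05 and -0.26, against 0.01 for all genes tested. Rasa3, a Ras and Rap GTPase-activating protein, rose furthest, with 1539, 1510.0 and 1686 in cKOHet libraries and 441, 454 and 389 in controls (log2 1.88, SE 0.12, limma adjusted p = 3.17e-08). Ptprj, which encodes the receptor phosphatase CD148, had 931, 1048 and 1275 in cKOHet libraries and 495, 551 and 514 in controls (1.05, SE 0.13, adjusted p = 3.64e-05).

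Among those that fell, the membrane adaptor gene Lax1, a negative regulator of lymphocyte signalling, had 304, 250.1 and 184 in cKOHet libraries and 1343, 1067 and 992 in controls (log2 -2.22, SE 0.18, limma adjusted p = 3.22e-07). Tespa1, needed for receptor signalling in thymocyte development, had 156, 95.3 and 95.8 in cKOHet libraries and 512, 510.4 and 556 in controls (-2.21, SE 0.19, adjusted p = 7.95e-07). Dok2, an adaptor that recruits Ras GTPase-activating protein, had 865, 836 and 1063 in cKOHet libraries and 1899.9, 1987 and 2428 in controls (-1.19, SE 0.13, adjusted p = 9.47e-06). None of these 5 genes overlapped between groups. Of the 59 genes, 11 differed at least 2-fold, 3 of them activating and 8 restraining (18.6%, against 13.2% of all genes tested).

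**Figure D4:**
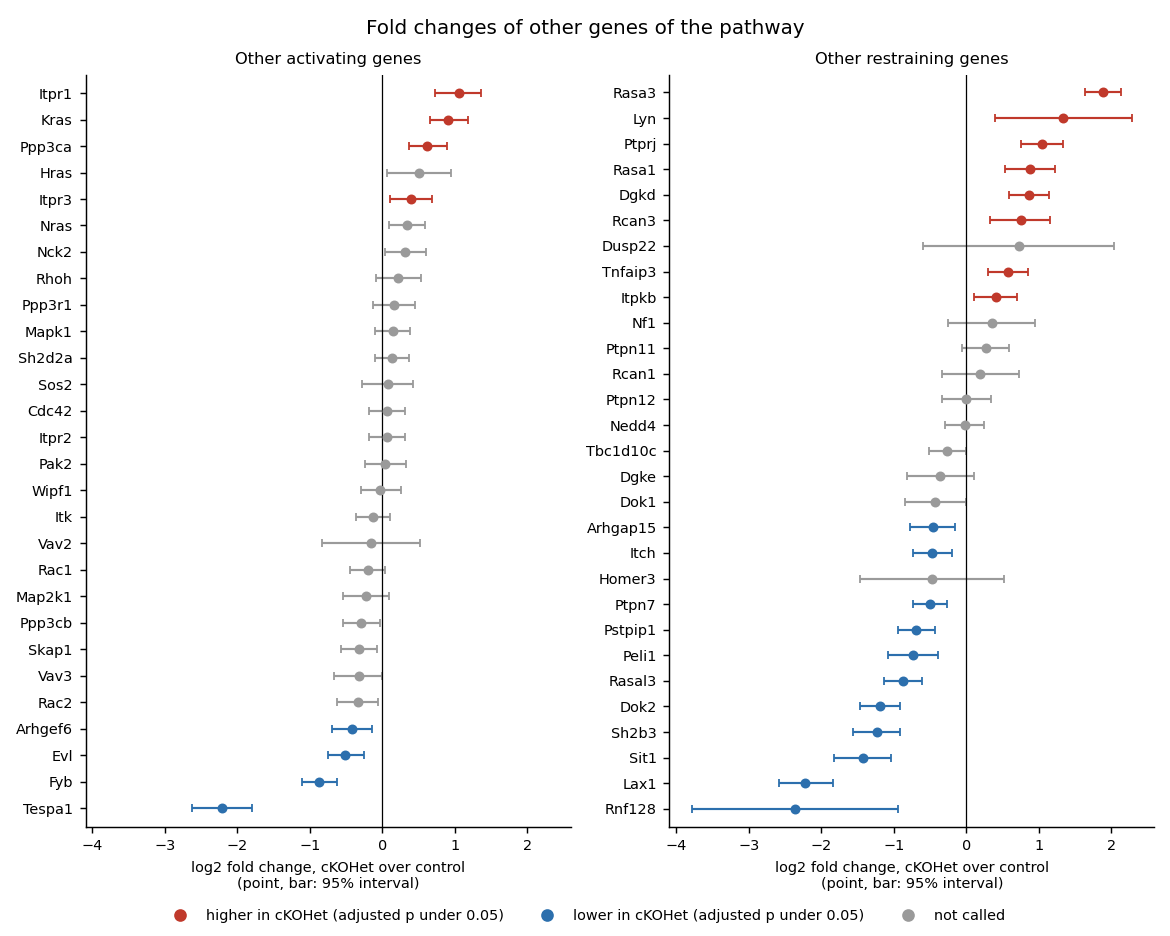
Log2 fold change, cKOHet over control, of 57 of the 59 other genes of the pathway with 95% intervals from the limma fit, activating genes in the left panel and restraining genes in the right; red and blue mark genes called higher and lower in cKOHet. Fold changes run from -2.21 to 1.05 among the activating and from -2.36 to 1.88 among the restraining genes, with called genes at both ends of each panel.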

How the data were processed

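One deposited table gives a signal for each Ensembl gene in 6 liver libraries, named by the authors as normalised HTSeq counts. The submitters' processing notes list Trimmomatic 0.33, STAR, HTSeq 0.6.1, DESeq2 and the mm10 build. Their settings, annotation, strand option and normalisation method are not given in these sources. Values are not whole, low values lie in bands offset between libraries, and the original depth is unknown. No gene peaks below 5.22, so genes with few reads are not listed.

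Symbols and positions came from GENCODE M21 (GRCm38), which named 12864 of 12942 identifiers. Genes at or above 10 in at least 3 libraries were tested on log2(value + 1) with limma 3.58.1 (R 4.3.3, mean-variance trend), cKOHet minus control, with Benjamini-Hochberg adjustment over all 11226; this scale understates changes of low genes. No count model was run, since the values are not counts. The procedure was run on simulated whole counts without bands offset between libraries. That run therefore does not show how the fit performs on the deposited values. The labels tie no library to a mouse, so the p-values reflect variation between libraries, which may be technical.

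The members, lists and tests were chosen with earlier results of these data known. All 39 members are named, with Ets1, Tbx21 and, of the other pathway genes, the 3 called with the smallest adjusted p in each direction, of which 1 is not reported here. Dgkd, Dgke, Rasa1, Rasal3, Nf1 and Rnf128 were named after their values were seen. Alternatives covered pseudocount, filter, scaling, variance model, library weights, a replicate block, a term for low Xist, the members of dual role (Themis, Ptprc and Cd6) and each library left out on the same genes.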

Additional observations from a re-analysis of the deposited data

How the results depend on the processing

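Calls among the 39 genes depended on the variance model, on single libraries (at Cblb, Themis, Nfatc2 and Cd5) and, at Pag1, on the filter, library weights and the term for low Xist. Of the 15 called genes, 9 kept their call and direction under all 16 alternatives, and none changed direction. With no mean-variance trend, 1670 genes were called in all, against 2407, and the numbers fell to 1 activator higher, 2 activators lower and 9 other pathway genes lower, against 3, 5 and 15; the calls lost among the 39 genes were named beside each gene. Other pseudocounts, filters, scalings and left-out libraries kept each count within 1.5 times its value. Directions turned at 7 genes, none of them called in either fit: with a library left out, log2 fold changes ran from -0.09 to 0.13 for Zap70, -0.06 to 0.03 for Lck, -0.04 to 0.01 for Txk, -0.30 to 0.07 for Tec, -0.02 to 0.11 for Lat, -0.17 to 0.33 for Nfatc3 and -0.14 to 0.15 for Cd28. Quantile normalisation gave 0.00 for Lck, and library weights gave 0.02 for Lck, 0.03 for Tec and -0.06 for Cd28. Scaling moved the median of all genes to -0.02 at most, against 0.01.

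A replicate block called 2412 genes and changed no call among the 39. Deviations from the group means correlated at 0.055 to 0.092 across genes between libraries of the same number and at -0.12 to 0.029 between others; every library correlated best with its own number, which is a hint from the data and not a pairing in the design. The unknown depth limits what can be said of low genes such as Tec.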
